A study of Mus musculus with 19 samples.

Results

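The genes of neurotrophic factor receptors, 8 in all, and 1 neurotrophin gene were selected by symbol from the counts of 6 RNA-seq libraries of retinal ganglion cell (RGC) neurons. They are the neurotrophin receptor genes Ntrk2, Ntrk3 and Ngfr, the neurotrophin gene Bdnf, the glial cell line-derived neurotrophic factor (GDNF) receptor genes Ret, Gfra1 and Gfra2, and the ciliary neurotrophic factor (CNTF) receptor genes Cntfr and Lifr. All 9 of these 9 genes, of 47069 genes in the tables, were found by their Ensembl identifiers, and all 9 were among the 15941 genes that passed the filter on low counts.

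The study compared RGCs whose axons stay on the same side of the brain (ipsilateral, iRGCs) with RGCs whose axons cross the midline (contralateral, cRGCs), and asked which genes distinguish the populations while the axons meet the optic chiasm. Sun1-GFP, a nuclear envelope protein fused to GFP and read from Rosa26 once Cre has removed a stop sequence, was switched on by Slc6a4-Cre for iRGCs and by Pou4f2-Cre for cRGCs, and GFP-positive cells were sorted from E16.5 retinas. Each population had 3 libraries, numbered as replicates 1 to 3. The 13 samples of chromatin accessibility were not analysed here.

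All embryos were labelled as C57/DBA F1, of wild type genotype and of both sexes in 1 pool. These labels leave out the Cre and the Sun1-GFP reporter that the sorted embryos carried. The paper names C57/DBA F1 hybrids for its electroporation experiments. Slc6a4 encodes the serotonin transporter, and its Cre is a transgene, whereas the Cre of cRGCs was inserted into the Pou4f2 gene, which most RGCs use. GFP marks every cell that has had Cre and the cells that descend from it, in either line. The ventrotemporal retina, where iRGCs are born, was cut away from the Pou4f2-Cre retinas only. The library names carry 1 code for all iRGC libraries and another for all cRGC libraries, so that this code, the Cre line, the region and the population cannot be told apart. The labels do not say whether the libraries came from separate litters, and p-values then measure the spread between these libraries, which may be technical.

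Neurotrophins bind receptor tyrosine kinases of the Trk family, which start survival and growth signals, and Ngfr, a receptor without kinase activity that modifies Trk signaling or signals by itself. GDNF and its relatives bind GFRα proteins anchored to the outer membrane, and the bound pair engages the receptor tyrosine kinase Ret. CNTF binds the anchored protein made by Cntfr, which then assembles with the products of Lifr and Il6st to activate Jak kinases and Stat3. In the visual system these pathways are known for RGC survival and axon growth, and BDNF acting on the Ntrk2 product, TrkB, is the best-known example.

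Each library held from 28193178 to 33638083 reads on genes, of which 12443 to 41210 fell on the 9 genes. Levels are given as CPM (counts per 1000000 counts of the library), scaled by TMM, a method that sets most genes equal between libraries. Means are followed by the SD of 3 libraries. A gene was called at an adjusted p-value under 0.1 (edgeR's quasi-likelihood test, Benjamini-Hochberg over all 15941 tested genes), and log2 fold changes are iRGC over cRGC. By this rule 46.4% of all tested genes were called, 23.1% lower and 23.3% higher in iRGCs, and in 55.3% the 3 libraries of one population lay wholly above or below those of the other.

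The labels were compared with known markers before the genes were examined. Zic2, a transcription factor of iRGCs, reached 134, 173 and 157 CPM in the iRGC libraries and 57.0, 60.2 and 65.7 CPM in the cRGC libraries. Pou4f1, a transcription factor of cRGCs, was at 107, 117 and 182 CPM in iRGCs and at 861, 672 and 431 CPM in cRGCs. Both followed the labels in every library.

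The driver gene Slc6a4 did not follow them. It was at 2.06, 33.4 and 116 CPM in iRGC replicates 1 to 3 and at 48.1, 35.4 and 30.5 CPM in cRGC replicates 1 to 3, so that iRGC replicate 1 lay below every cRGC library (log2 fold change 0.41, edgeR adjusted p = 0.768). Replicate 3 of cRGCs stood apart from the other cRGC libraries in several RGC genes, with 3.19 CPM of Thy1, a surface protein of RGCs, against 46.5 and 39.1. Values without iRGC replicate 1 and without cRGC replicate 3 are therefore given below for each gene.

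The sorted cells also differed in cell type markers. Of 10 RGC markers, 9 were lower in iRGCs and 0 were higher, with a median log2 fold change of -1.94. Their summed level was 2048, 2890 and 4548 CPM in iRGC replicates 1 to 3 and 11320, 10510 and 13140 CPM in the cRGC replicates, and Nefm, a neurofilament gene, was the most abundant.

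Of 12 markers of retinal progenitors, 11 were higher in iRGCs, with a median of 2.51 and sums of 9603, 8626 and 7376 CPM against 1680, 2773 and 2246 CPM. All 7 markers of neurogenic precursors were also higher. The 6 tested endothelial markers were higher too, and the defining gene Cdh5 was at 15.3, 81.3 and 0.158 CPM in iRGCs and at 0 in every cRGC library. Replicate 2 of iRGCs thus held the most Cdh5.

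The summed endothelial level was 465, 634 and 434 CPM in iRGCs and 87.7, 108 and 70.5 CPM in cRGCs, mostly from Kdr, which retinal progenitors also use. Of 4 tested mural markers 3 were higher, led by Notch3, with sums of 132, 274 and 107 CPM against 20.8, 31.2 and 22.4 CPM, and Kcnj8 was at 0 in iRGC replicate 1 and in every cRGC library. Of 4 tested erythroid markers 4 were higher, led by Hbb-bs, with sums of 12.2, 85.5 and 14.1 CPM against 0, 4.94 and 0.258 CPM. The summed level of each of these lists was thus highest in iRGC replicate 2, although Kdr was lowest there among the iRGC libraries.

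Markers of other retinal neurons were higher as well, in 5 of 5 tested genes for photoreceptor precursors, led by Otx2 (sums of 784, 611 and 582 CPM against 98.3, 194 and 136 CPM), and in 5 of 6 for amacrine cells, led by Tfap2b (sums of 290.3, 241 and 339 CPM against 123, 147 and 97.5 CPM). Of 5 horizontal cell markers 1 was higher. Of the 2 tested astrocyte genes, Slc1a3, which progenitors also use, was higher (log2 fold change 2.64) and Aldh1l1 was lower (log2 fold change -1.10, edgeR adjusted p = 0.0398), whereas Gfap was at no more than 0.189 CPM. The part of these cells in the levels of the 9 genes was not tested. In bulk libraries, fewer cells of a type and less RNA per cell cannot be told apart.

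The 9 genes divided between a large difference, a small difference and none that was called. Of the 9, 6 were lower in iRGCs (Ntrk2, Ntrk3, Ngfr, Ret, Gfra2 and Cntfr) and 0 were higher. Bdnf, Gfra1 and Lifr were not called. Over all tested genes, 23.1% were lower and 23.3% higher. The median log2 fold change of the 9 was -1.49, against -0.00307 over all tested genes. Of the 6, Ntrk2, Ntrk3, Ngfr, Ret and Gfra2 were 2.82- to 3.67-fold higher in cRGCs and Cntfr was 1.37-fold higher. The summed level of the 9 genes was 400.2, 488 and 516 CPM in iRGC replicates 1 to 3, and 1063, 1041 and 1330 CPM in the cRGC replicates.

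**Figure D1:**
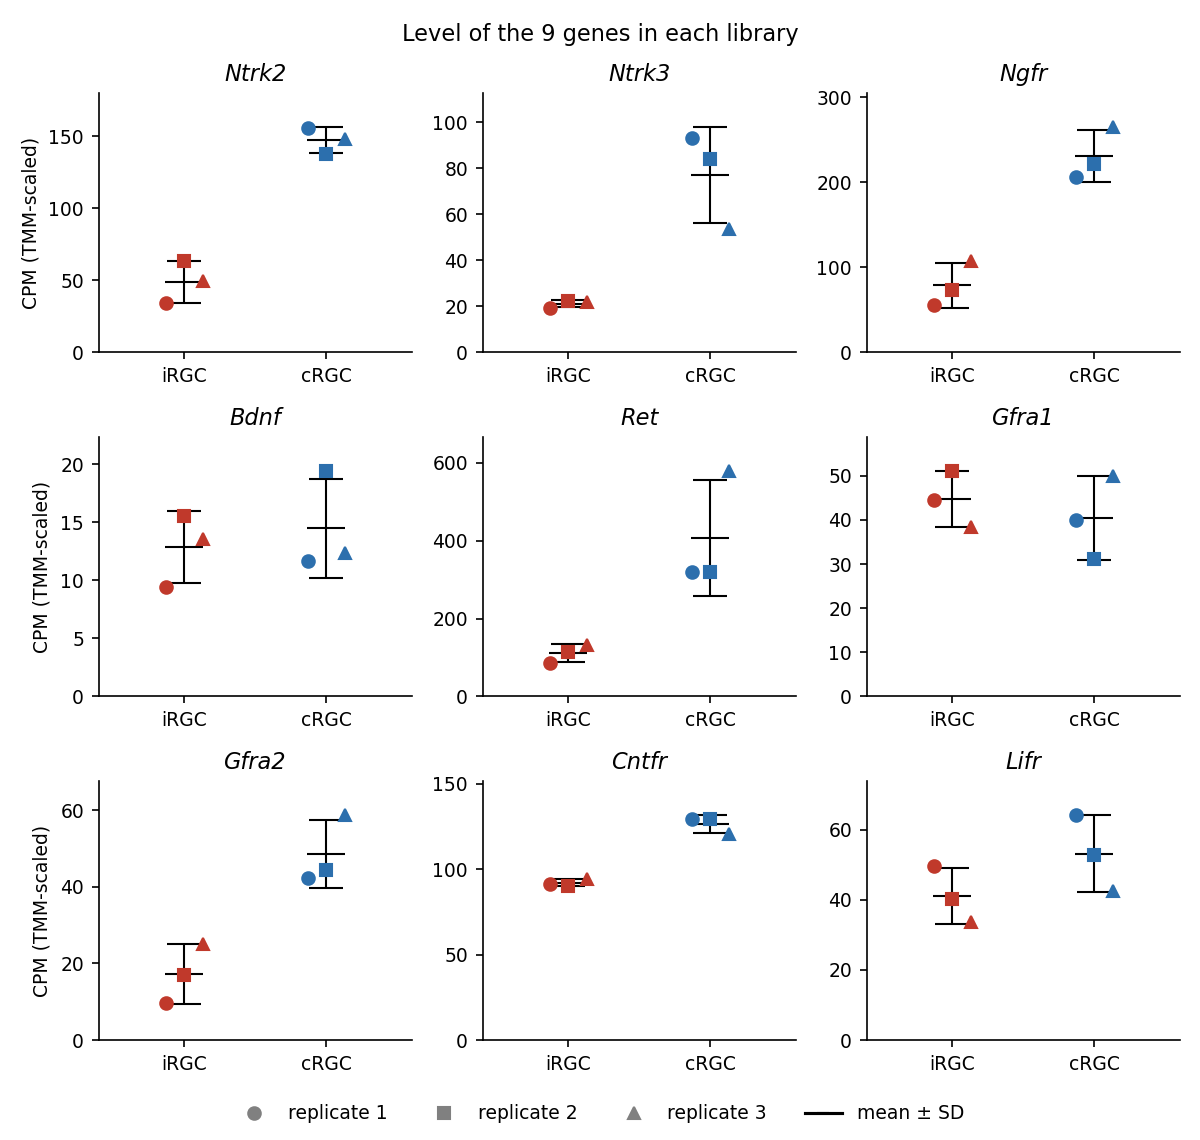
Level of each gene in CPM after TMM scaling (vertical axis from 0, 1 panel per gene), with 1 point per library, the marker shape giving the replicate number, and the mean and SD of 3 libraries as bars. The iRGC points (red) lie wholly below the cRGC points (blue) for Ntrk2, Ntrk3, Ngfr, Ret, Gfra2 and Cntfr, and mix with them for Bdnf, Gfra1 and Lifr. Over all tested genes, the libraries of the populations did not overlap in 55.3%, in either direction.

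Ntrk2 encodes TrkB, the kinase receptor of BDNF (GRCm38 chromosome 13, 58806569 to 59133970, + strand). It was at 34.1, 63.2 and 49.7 CPM in iRGC replicates 1 to 3 (49.0 ± 14.6, SD, n = 3) and at 156, 138 and 148 CPM in the cRGC replicates (147 ± 8.96, SD, n = 3). Every cRGC library was above the highest iRGC library, and the cRGC libraries were also closer together, with a highest value 1.13 times the lowest against 1.85 times in iRGCs. The log2 fold change was -1.59 (SE 0.203, edgeR adjusted p = 4.73e-04), a 3.01-fold higher level in cRGCs. Without iRGC replicate 1 it was -1.39 and without cRGC replicate 3 it was -1.58.

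Ntrk3 encodes TrkC, the kinase receptor of neurotrophin-3 (chromosome 7, 78175959 to 78738012, - strand). Its iRGC libraries were close together, at 19.5, 22.3 and 21.9 CPM (21.2 ± 1.48, SD, n = 3). Its cRGC libraries were at 93.3, 84.2 and 53.4 CPM (77.0 ± 20.9, SD, n = 3), the lowest being replicate 3, and still did not overlap the iRGC libraries. The log2 fold change of -1.86 (SE 0.207, edgeR adjusted p = 2.81e-04), or 3.63-fold, was -1.80 without iRGC replicate 1 and -2.06 without cRGC replicate 3.

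Ngfr encodes the low-affinity receptor shared by all neurotrophins (chromosome 11, 95568818 to 95587735, - strand). It was at 55.7, 73.9 and 107 CPM in iRGCs (79.0 ± 26.2, SD, n = 3) and at 206, 221 and 265 CPM in cRGCs (231 ± 30.6, SD, n = 3). The populations did not overlap, although the highest iRGC library held 1.93 times the level of the lowest. The log2 fold change was -1.55 (SE 0.223, edgeR adjusted p = 7.83e-04), or 2.92-fold, with -1.35 without iRGC replicate 1 and -1.44 without cRGC replicate 3.

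Bdnf, the only ligand gene among the 9 (chromosome 2, 109674700 to 109727007, + strand), was at 9.46, 15.5 and 13.6 CPM in iRGCs (12.8 ± 3.09, SD, n = 3). In cRGCs it was at 11.7, 19.4 and 12.3 CPM (14.5 ± 4.29, SD, n = 3). The libraries overlapped, and the log2 fold change of -0.17 had a 95% interval of -0.81 to 0.47 (SE 0.282, edgeR adjusted p = 0.680). It was 0.0066 without iRGC replicate 1 and -0.27 without cRGC replicate 3 (edgeR adjusted p = 0.990 and 0.594). Its exons share 896 bases with the antisense gene Gm45346, and without the strand of counting, which is not given in the sources used here, their reads cannot be told apart.

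The promoter windows of Ntrk2 and Ngfr are shown because these receptor genes were lower together in iRGCs, and that of Gfra1 because it was not called. Each window runs from 250 bases before to 50 bases after a RefSeq transcription start (GRCm38.p6), 5′ to 3′ on the gene's strand. Capitals mark matches of GGGCGG, the GC box bound by Sp factors, on either strand, which 35.7% of all 32851 windows of this kind hold. The windows are chr13:58806319-58806618 (+), chr11:95587649-95587948 (-) and chr19:58455349-58455648 (-).
Ntrk2: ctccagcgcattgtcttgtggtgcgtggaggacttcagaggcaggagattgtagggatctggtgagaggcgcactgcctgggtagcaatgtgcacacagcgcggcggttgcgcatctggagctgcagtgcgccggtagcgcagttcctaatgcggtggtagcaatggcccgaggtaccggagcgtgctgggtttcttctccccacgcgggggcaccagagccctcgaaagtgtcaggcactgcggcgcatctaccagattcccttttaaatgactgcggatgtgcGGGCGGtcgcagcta
Ngfr: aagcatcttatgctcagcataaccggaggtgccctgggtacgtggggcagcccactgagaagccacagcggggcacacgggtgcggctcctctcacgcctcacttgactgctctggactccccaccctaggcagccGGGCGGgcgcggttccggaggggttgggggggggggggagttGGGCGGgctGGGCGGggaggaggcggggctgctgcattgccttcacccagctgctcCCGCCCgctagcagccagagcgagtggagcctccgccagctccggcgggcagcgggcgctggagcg
Gfra1: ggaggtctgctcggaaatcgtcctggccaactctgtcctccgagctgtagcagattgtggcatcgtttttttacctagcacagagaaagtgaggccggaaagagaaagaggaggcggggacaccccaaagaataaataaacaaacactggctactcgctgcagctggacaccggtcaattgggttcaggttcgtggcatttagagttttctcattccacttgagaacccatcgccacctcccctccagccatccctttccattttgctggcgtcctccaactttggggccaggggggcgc
The Ngfr window held 4 GC boxes and 23 CG pairs, that of Ntrk2 held 1 GC box and 23 CG pairs, and that of Gfra1 held 0 GC boxes and 12 CG pairs. GC boxes were not limited to called genes. Of the other genes not called, Lifr and Bdnf each had a window with 2 GC boxes. The called genes Ntrk3, Ret and Gfra2 had no window.

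The table of windows held 18 for 6 of the 9 genes, Ntrk2, Ngfr, Bdnf, Gfra1, Cntfr and Lifr. They were also searched on both strands for TAATTA, the core recognised by LIM homeodomain factors such as Lhx2, which 5.29% of all windows hold, for ATAATTAAT, a site of Pou4f factors that contains this core and is held by 0.274%, and for CAGCAGG, a site of Zic factors held by 10.5%. The 1 match was of TAATTA, in 1 of the 6 windows of Cntfr. A match describes the letters of the window alone and shows no binding.

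Ret encodes the signaling receptor of the GDNF family (chromosome 6, 118151745 to 118197718, - strand). It was at 86.6, 114 and 132 CPM in iRGCs (111 ± 22.7, SD, n = 3) and at 319.8, 320.4 and 579 CPM in cRGCs (406.5 ± 149.6, SD, n = 3). The cRGC replicate 3 alone held 1.81 times the level of the lowest cRGC library, and the other cRGC libraries were also above every iRGC library. The log2 fold change was -1.88 (SE 0.255, edgeR adjusted p = 6.00e-04), or 3.67-fold. It was -1.53 without cRGC replicate 3 and -1.73 without iRGC replicate 1.

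Gfra1 encodes the preferred co-receptor of GDNF (chromosome 19, 58235604 to 58455909, - strand). Its iRGC libraries were at 44.5, 51.1 and 38.5 CPM (44.7 ± 6.32, SD, n = 3) and its cRGC libraries at 40.1, 31.2 and 50.05 CPM (40.5 ± 9.43, SD, n = 3). The libraries overlapped, and the log2 fold change was 0.14 with a 95% interval of -0.29 to 0.58 (SE 0.192, edgeR adjusted p = 0.602). Without cRGC replicate 3 it was 0.34 (edgeR adjusted p = 0.242), and without iRGC replicate 1 it was 0.14. The antisense gene Gm16277, which overlaps its exons, had at most 1 count in any library.

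Gfra2 encodes the preferred co-receptor of neurturin, a relative of GDNF (chromosome 14, 70890120 to 70979838, + strand). It was at 9.55, 17.0 and 25.1 CPM in iRGCs (17.2 ± 7.79, SD, n = 3), the widest spread of the 9 genes in this population relative to the mean (coefficient of variation 45.2%), and at 42.4, 44.5 and 58.8 CPM in cRGCs (48.5 ± 8.92, SD, n = 3). No iRGC library reached the lowest cRGC library. The log2 fold change was -1.49 (SE 0.316, edgeR adjusted p = 0.00523), or 2.82-fold, with -1.20 without iRGC replicate 1 and -1.34 without cRGC replicate 3.

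The levels of the co-receptors that present ligand to Ret were also set against each other. Per kilobase of exon, the ratio of Gfra1 to Gfra2 was 3.01, 1.94 and 0.989 in iRGC replicates 1 to 3 and 0.612, 0.453 and 0.550 in the cRGC replicates. Every iRGC library had a higher ratio than every cRGC library, and the mean log2 ratio differed by 1.75, or 3.36-fold (two-sided exact permutation test, p = 0.1, the smallest that 3 libraries against 3 can give, and 0.3 adjusted over the 3 ratios compared). The difference was 1.37 without iRGC replicate 1 and 1.77 without cRGC replicate 3. From iRGC replicate 1 to 3 the ratio fell while the summed level of RGC markers rose, at 2048, 2890 and 4548 CPM. The cRGC libraries, at 11320, 10510 and 13140 CPM, did not show this order. Whether Gfra1 and Gfra2 were read from the same cells was not tested.

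Cntfr encodes the ligand-binding subunit for CNTF (chromosome 4, 41657498 to 41697089, - strand). It varied least of the 9 genes relative to its mean (coefficient of variation 2.37% in iRGCs and 4.12% in cRGCs), with 91.3, 90.4 and 94.5 CPM in iRGCs (92.1 ± 2.18, SD, n = 3) and 129.6, 129.6 and 121 CPM in cRGCs (127 ± 5.21, SD, n = 3). The libraries did not overlap. The difference was small but larger than this spread, with a log2 fold change of -0.46 (SE 0.0974, edgeR adjusted p = 0.00530), -0.45 without iRGC replicate 1 and -0.49 without cRGC replicate 3.

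Lifr encodes the signaling subunit shared by the CNTF and leukemia inhibitory factor (LIF) receptors (chromosome 15, 7090614 to 7197489, + strand). It was at 49.5, 40.3 and 33.6 CPM in iRGCs (41.1 ± 7.96, SD, n = 3) and at 64.2, 52.8 and 42.5 CPM in cRGCs (53.2 ± 10.9, SD, n = 3). The lowest cRGC library lay below the highest iRGC library. The log2 fold change was -0.37, with a 95% interval of -0.81 to 0.07 (SE 0.194, edgeR adjusted p = 0.169), and it was called at -0.53 without iRGC replicate 1 (edgeR adjusted p = 0.0702). Without cRGC replicate 3 it was -0.49 and was not called (edgeR adjusted p = 0.112). With the replicate number as a block it was called at -0.37 (edgeR adjusted p = 0.0695), although these numbers did not pair the samples, as given below.

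The ratio of Cntfr to Lifr per kilobase of exon was 7.15, 8.69 and 10.9 in the iRGC libraries and 7.82, 9.50 and 11 in the cRGC libraries, which overlapped (two-sided exact permutation test, p = 0.7, and 0.7 adjusted over the 3 ratios). The ratio of the Trk receptor genes Ntrk2 to Ntrk3 was 2.73, 4.44 and 3.56 in iRGCs and 2.61, 2.56 and 4.34 in cRGCs, which overlapped as well (two-sided exact permutation test, p = 0.5, adjusted 0.7). Of the 3 ratios, that of Gfra1 to Gfra2 was the 1 without overlap.

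**Figure D2:**
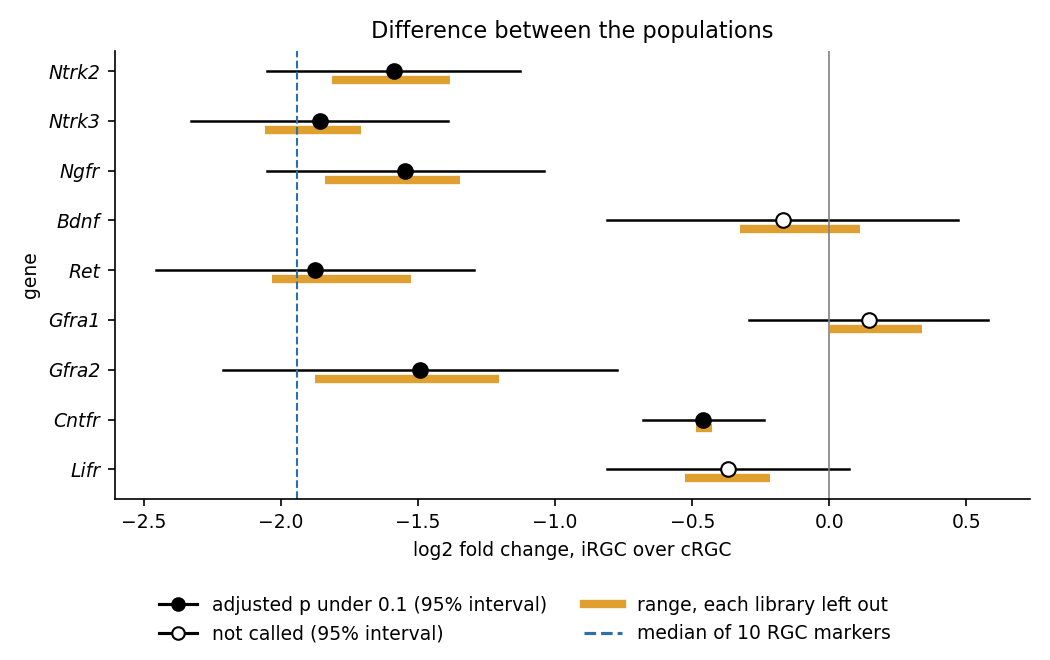
Log2 fold change of each gene, iRGC over cRGC (horizontal axis), as points with 95% intervals, filled where the adjusted p-value was under 0.1, with the range of values with any 1 library left out (orange) and the median of the 10 RGC markers (dashed line at -1.94). Ntrk2, Ntrk3, Ngfr, Ret and Gfra2 lie between -1.49 and -1.88, Cntfr at -0.46, and the intervals of Bdnf, Gfra1 and Lifr include 0.

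The genes were also ordered by level within each population, per kilobase of merged exon so that genes of different length can be compared. In iRGCs the highest were Cntfr (33.1 CPM per kilobase), Ngfr (22.9) and Ret (16.4), followed by Gfra1 (8.16), Gfra2 (4.87), Lifr (3.82), Ntrk2 (2.54), Bdnf (2.07) and Ntrk3 (0.703). The libraries of neighbours in this order overlapped except between Cntfr and Ngfr, between Ret and Gfra1 and between Bdnf and Ntrk3.

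In cRGCs the order began with Ngfr (66.9 CPM per kilobase), Ret (60.1) and Cntfr (45.5), and went on with Gfra2 (13.7), Ntrk2 (7.64), Gfra1 (7.39), Lifr (4.93), Ntrk3 (2.55) and Bdnf (2.33). Here the neighbours Ngfr and Ret, Ntrk2 and Gfra1, Gfra1 and Lifr, and Ntrk3 and Bdnf overlapped. Cntfr was thus first in iRGCs and the third in cRGCs, and Gfra1 stood above Gfra2 in iRGCs, where their libraries overlapped, and below it in cRGCs, where those of Gfra2 were all higher.

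The lengths bear on this order, since Ntrk2 and Ntrk3 have 19292 and 30170 bases of merged exon but 2661 and 2923 bases of coding sequence. Per kilobase of coding sequence, a measure chosen after the values were seen, Ntrk2 was at 18.4 CPM in iRGCs and at 55.4 CPM in cRGCs, the fifth and the fourth of the 9 genes. Gfra1 was above Gfra2 in both populations by this measure, at 30.5 against 9.53 CPM in iRGCs and at 27.6 against 26.8 CPM in cRGCs, where their libraries overlapped. Per kilobase of the longest transcript, Gfra2 was above Gfra1 in cRGCs without overlap, at 14.0 against 8.72 CPM, as per kilobase of exon. Cntfr, Ngfr and Ret were the 3 highest in both populations by each of these lengths.

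**Figure D3:**
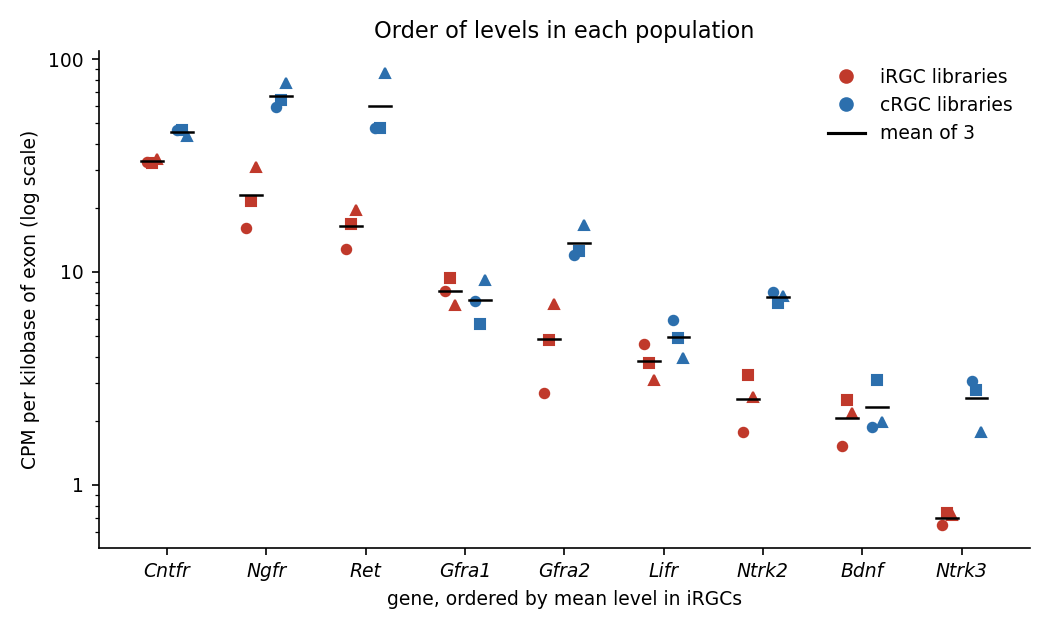
CPM per kilobase of merged exon (vertical axis, log scale) of each gene in the 3 iRGC libraries (red) and 3 cRGC libraries (blue), with means as bars and genes ordered by their mean in iRGCs. Cntfr, Ngfr and Ret are highest in both populations, and Ntrk3 lies lowest in iRGCs at 0.703 CPM per kilobase.

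Because the RGC markers differed as well, each gene was set against them within each library. This quantity was chosen after the values were seen. It is the count of the gene per 1000 counts on 9 RGC markers (Rbpms, Sncg, Nefm, Gap43 and others), which leaves out Pou4f2 as the driver of Cre, and it does not depend on the scaling between libraries. Nefm gave 17.6% to 21.9% of the marker counts in each library.

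With RGC markers lower in iRGCs, most genes were higher on this scale, 79% of all tested genes without overlap and 0.583% lower, with a median ratio of 4.09. Of the 9 genes, 6 were higher without overlap, 3 overlapped and 0 were lower. Ret was at 43.9, 41.4 and 29.6 counts per 1000 marker counts in iRGC replicates 1 to 3 and at 28.7, 31.1 and 45.1 in the cRGC replicates, so that the libraries overlapped and the means differed 1.10-fold. Ntrk3, at 9.89, 8.07 and 4.91 against 8.38, 8.17 and 4.16, overlapped as well, with means that differed 1.10-fold. Ntrk2, at 17.3, 22.9 and 11.2 against 14.0, 13.4 and 11.6, was the remaining gene with overlap.

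The genes without a called difference in CPM had ratios around this median, that of Gfra1 above it and those of Bdnf and Lifr below it. Gfra1 was at 22.5, 18.5 and 8.65 counts per 1000 marker counts in iRGCs and at 3.60, 3.03 and 3.90 in cRGCs, 4.72-fold higher in iRGCs. Bdnf was 3.46-fold higher in iRGCs, at 4.79, 5.63 and 3.05 against 1.05, 1.88 and 0.960, and Lifr was 3.33-fold higher, at 25.1, 14.6 and 7.56 against 5.77, 5.13 and 3.31. Cntfr, lower in CPM, was 2.99-fold higher, at 46.3, 32.8 and 21.2 against 11.6, 12.6 and 9.39.

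Ngfr was 1.31-fold higher, at 28.2, 26.8 and 24.1 against 18.5, 21.5 and 20.6, and Gfra2 was 1.31-fold higher, at 4.84, 6.18 and 5.65 against 3.81, 4.32 and 4.57. The ratios of Ntrk3, Ret, Ngfr, Gfra2 and Ntrk2 were thus 1.10 to 1.32, below the median of 4.09 for all genes. On this scale the summed RGC markers are equal between the populations by construction. The same genes had the lowest log2 fold changes of the 9 in CPM, which these ratios restate. With the geometric mean of the 9 markers in place of their sum, Ngfr and Gfra2 overlapped too, and 4 genes were higher without overlap. Whether the lower share of RGC marker RNA produced the differences in CPM was not tested.

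**Figure D4:**
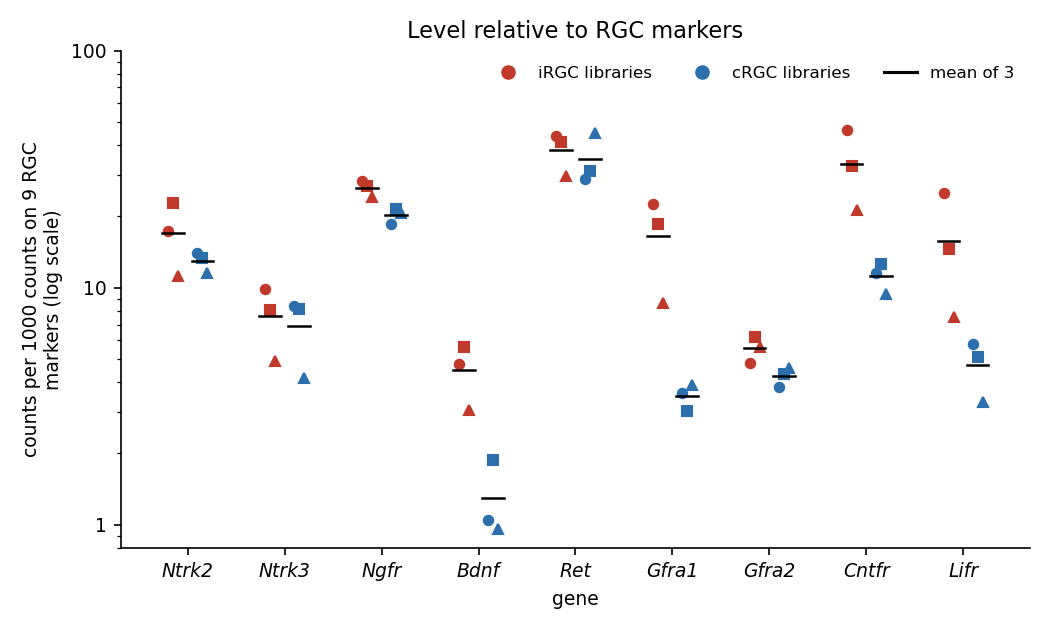
Counts of each gene per 1000 counts on 9 RGC markers (vertical axis, log scale) in the 3 iRGC libraries (red) and 3 cRGC libraries (blue), with means as bars and marker shapes for replicates 1, 2 and 3 (circle, square, triangle). Ret, Ntrk2 and Ntrk3 overlap between the populations, and Bdnf, Gfra1, Cntfr and Lifr are 2.99- to 4.72-fold higher in iRGCs, against a median of 4.09 over all tested genes.

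Other genes of these pathways were taken from lists sorted by role. Of 78 genes, 66 were tested, and 21 were higher in iRGCs (31.8%), 18 lower (27.3%) and 27 not called, with a median log2 fold change of -0.0133. The shares called over all tested genes were 23.3% and 23.1%, as given above.

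Other neurotrophin ligand genes were nearly absent from the sorted cells. Ntf5 was at 0 in all 6 libraries, and Ntf3 was at 0.0322, 2.78 and 0.694 CPM in iRGCs and at no more than 0.161 CPM in cRGCs. Neither gene passed the filter. A count of 0 allows levels of up to 0.0927 to 0.115 CPM in single libraries (3 counts, counting error alone).

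Of the 7 other receptors and co-receptors of neurotrophins, 2 were higher and 2 lower in iRGCs. This was 28.6% each, against 23.3% higher and 23.1% lower over all tested genes. Lingo1, a partner of Ngfr, was lower and was the most abundant of these genes per kilobase in cRGCs but not in iRGCs, at 41.4, 74.8 and 109 CPM against 299, 297 and 324 CPM (log2 fold change -2.03). Sorcs1, a sorting receptor of the family that binds neurotrophin precursors, went the other way, at 189, 125 and 135 CPM against 26.5, 48.5 and 22.4 CPM (log2 fold change 2.21).

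Of 16 adaptors of Trk signaling, 8 were lower (50%), 3 higher (18.8%) and 5 not called. The shares over all tested genes were 23.1% lower and 23.3% higher. Kidins220, a scaffold substrate of Trk kinases, was at 373, 403 and 608 CPM in iRGCs and at 1428, 1253 and 1262 CPM in cRGCs (log2 fold change -1.51, SE 0.183, edgeR adjusted p = 3.84e-04). The adaptors Shc2 (log2 fold change -1.93) and Sh2b2 (-1.41) were lower as well, without overlap. Without iRGC replicate 2, 7 adaptors were lower and 1 was higher. Maged1, which binds Ngfr and was the most abundant adaptor per kilobase, had a smaller difference, -0.54.

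Among GDNF family genes, the ligand gene Gdnf was not called, at 1.80, 5.56 and 4.23 CPM in iRGCs and 4.88, 2.66 and 17.7 CPM in cRGCs (log2 fold change -1.12, SE 0.698, edgeR adjusted p = 0.244). The high value was cRGC replicate 3, as for Ret, and without it the log2 fold change was 0.05 (edgeR adjusted p = 0.971). Gfra3, the co-receptor of artemin, was lower in iRGCs (log2 fold change -2.17, edgeR adjusted p = 0.0280) at low levels, from 0.643 to 1.55 CPM in iRGCs and from 2.31 to 9.39 CPM in cRGCs. The highest was again cRGC replicate 3, without which Gfra3 was not called (log2 fold change -1.45, edgeR adjusted p = 0.208).

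Ncam1, an adhesion molecule that can serve as a GDNF receptor with Gfra1, was lower by a small amount (log2 fold change -0.64, SE 0.106, edgeR adjusted p = 0.00156). Gas1, a protein related to the GFRα family that can restrain Ret signaling, was higher in iRGCs, at 83.2, 86.8 and 142 CPM against 5.46, 31.2 and 14.5 CPM (log2 fold change 2.61, SE 0.525, edgeR adjusted p = 0.00407, and 3.38 without cRGC replicate 2).

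Of the 6 tested adaptors of Ret, 3 were lower and 2 higher, against 23.1% lower and 23.3% higher over all tested genes. Dok5 was at 9.07, 11.8 and 16.52 CPM in iRGCs and at 47.4, 46.8 and 56.6 CPM in cRGCs (log2 fold change -2.01). Grb10, which binds several receptor kinases, was the most abundant of these genes per kilobase and was higher in iRGCs, at 1180, 1171 and 834 CPM against 193, 314 and 377 CPM (log2 fold change 1.85). Dok1 was higher too, at no more than 5.04 CPM (log2 fold change 1.62, edgeR adjusted p = 0.05), but not without iRGC replicate 2 or cRGC replicate 1 (edgeR adjusted p = 0.156 and 0.122).

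In the lists of CNTF and LIF ligands, of their receptors, and of Jak and Stat genes, few were called, against 46.4% of all tested genes. Among the feedback inhibitors counted below, Socs3 and Pias3 were higher in iRGCs (log2 fold change 2.06 and 0.39, edgeR adjusted p = 0.00175 and 0.0467). Socs1 and Socs2 were not called. Il6st, the signal transducer shared by the receptors of this cytokine family, was at 51.1, 60.2 and 62.9 CPM in iRGCs and 62.6, 64.1 and 53.9 CPM in cRGCs, which overlapped (log2 fold change -0.05, SE 0.132, edgeR adjusted p = 0.797). Of the 4 tested ligand genes, Clcf1 was called, lower in iRGCs (log2 fold change -0.96, edgeR adjusted p = 0.0316, but 0.111 without cRGC replicate 1 and 0.140 without cRGC replicate 2), and Cntf itself was at no more than 1.13 CPM. Of 7 Jak and Stat genes, 1 was called, Jak1, at -0.49 (SE 0.121, edgeR adjusted p = 0.0112), and it was called with each library left out in turn. A further gene was lower when an iRGC library was left out, Tyk2 without replicate 1, Stat5a without replicate 2 and Stat3 without replicate 3 (edgeR adjusted p = 0.0222, 0.0552 and 0.00700).

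Feedback inhibitors and response genes of these receptors were mostly higher in iRGCs. Of 17 such genes, 13 were higher, 1 was lower and 3 were not called, with a median log2 fold change of 1.45, against 23.3% higher and a median of -0.00307 over all tested genes. Egr2, an immediate early transcription factor, was at 27.8, 48.3 and 14.8 CPM in iRGCs and at 2.88, 3.35 and 4.87 CPM in cRGCs (log2 fold change 3.03, SE 0.430, edgeR adjusted p = 7.35e-04). The related Egr1, the most abundant per kilobase, was at 314, 618 and 152 CPM against 117, 140.3 and 140.4 CPM (log2 fold change 1.45, edgeR adjusted p = 0.0202). Without iRGC replicate 2, its log2 fold change was 0.81 (edgeR adjusted p = 0.0539).

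Etv1, a transcription factor of the Ets family, was higher with little spread in iRGCs, at 12.7, 13.3 and 12.6 CPM against 1.12, 4.14 and 1.84 CPM (log2 fold change 2.44, and 3.13 without cRGC replicate 2), and Spry1, an inhibitor of receptor kinase signaling, was at 13.9, 28.0 and 13.1 CPM against 3.96, 3.83 and 2.49 CPM (log2 fold change 2.42). Vgf, a gene for a secreted neuropeptide precursor, was the 1 that was lower (log2 fold change -1.79, and -2.49 without iRGC replicate 3, named after its value was seen). Egr2, Egr1 and Spry1 were highest in iRGC replicate 2, which also held the most endothelial Cdh5 and 93.8 CPM of the mural cell gene Rgs5, against 3.76 and 2.24 CPM in the other iRGC libraries. Without this library, 12 of the 17 genes were higher and 1 was lower, with a median log2 fold change of 1.06. These genes are known to respond to other receptors as well, and the part of other cells in their levels was not tested.

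**Figure D5:**
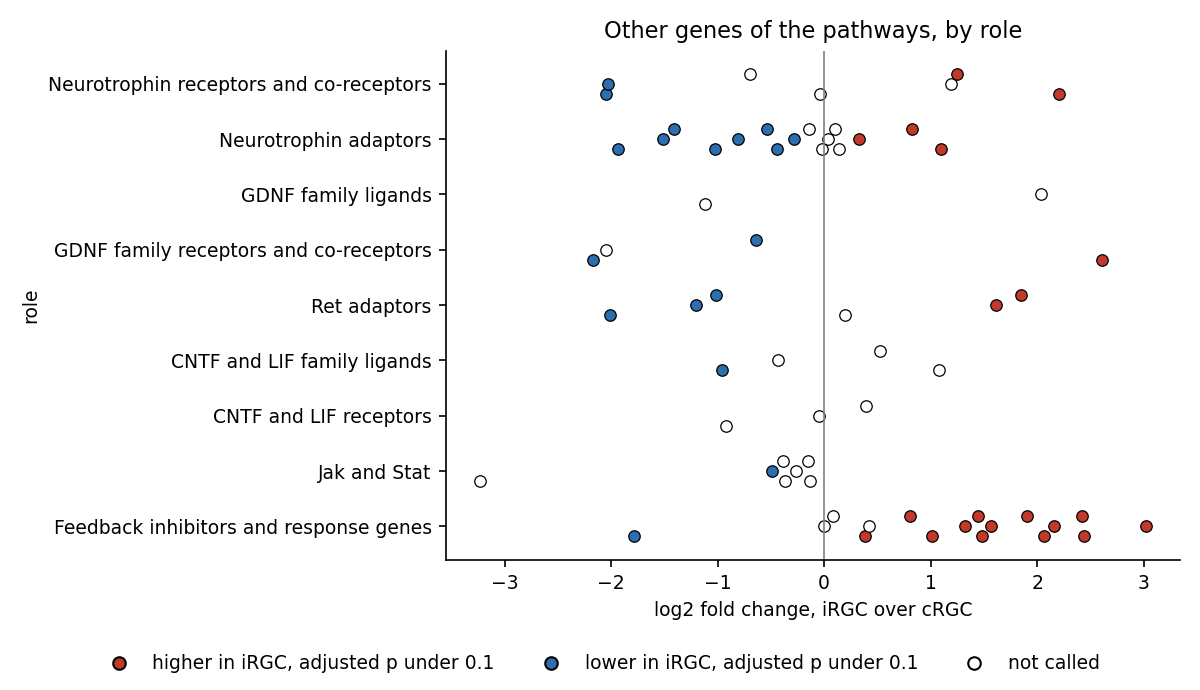
Log2 fold change, iRGC over cRGC (horizontal axis), of the 66 tested pathway genes other than the 9 genes above, 1 point per gene and 1 row per role, filled red where higher and blue where lower at an adjusted p-value under 0.1. Of the 17 feedback inhibitors and response genes, 13 are red and 1 is blue, and of the 16 neurotrophin adaptors, 3 are red and 8 are blue. Over all tested genes, 23.3% were higher and 23.1% lower. The difference between these lists was not tested.

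The genes most like each of the 9 in their levels over the 6 libraries were found by Pearson correlation of log2 CPM among 10101 tested protein-coding genes. With 6 libraries in 2 populations, high values arise for many genes and describe these libraries alone. Ntrk2 was most like Nagk (r = 0.999) and Slc29a3 (r = 0.998), Ntrk3 like Capn7 (r = 0.999) and Bmper (r = 0.997), and Ret like Tigar (r = 0.997) and Smarcd1 (r = 0.996). Ngfr was most like Zfp949 and Slc39a6, Gfra2 like Cntnap2 and Prkacb, and Cntfr like Akap7 and Rabgap1l, each with r of at least 0.998.

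Cntnap2, an axonal adhesion protein, was at 57.6, 99.4 and 141 CPM in iRGCs and at 233, 255 and 321 CPM in cRGCs, the same order of libraries as Gfra2. Bmper, a secreted binder of bone morphogenetic proteins, was at 4.12, 6.18 and 5.74 CPM against 38.3, 30.9 and 18.4 CPM, with cRGC replicate 3 the lowest of its population as for Ntrk3. The genes that were not called had somewhat lower values, Bdnf with Lztfl1 and Lrrn2 (r = 0.976 for both), Gfra1 with Tstd2 (r = 0.974), and Lifr with Nf1 (r = 0.963) and Usp31 (r = 0.962).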

How the data were processed

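The authors sorted cells with GFP from retinas at E16.5 and sequenced their RNA, with 3 libraries per population. The authors deposited raw counts per gene, 1 table per library. The submitters' processing notes name HISAT2 2.1.0 and HTSeq 0.11.1 and the builds mm10 and GRCm38, and the methods name the Ensembl annotation. HTSeq's tallies that name no gene, 43.1% to 47.3% of all tallied alignments, stayed out of library sizes and tests. Whether counting used the strand is not given in the sources used here.

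Gene symbols, exon lengths and positions were read from the GENCODE annotation of GRCm38. The test was edgeR's (version 4.0.16, in R 4.3.3, with filterByExpr, TMM, quasi-likelihood test, Benjamini-Hochberg) over all genes that passed the filter, and a gene was called at an adjusted p-value under 0.1. The study used DESeq2, here an alternative (1.42.0) beside limma voom (3.58.1). SEs were derived from the log2 fold change and its F statistic, and 95% intervals use the t distribution with the fit's degrees of freedom. The biological coefficient of variation was 36.3%. The fits were tested on simulated data. Ratios of genes were compared by two-sided exact permutation tests. Python 3.11.15 with matplotlib 3.10.9 drew the figures.

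The genes, marker lists and pathway lists were chosen with earlier results of these data known. Pathway genes named are, per role, up to 3 called genes with the largest absolute log2 fold change and the most abundant gene per kilobase, and for each of the 9 genes the 2 most correlated genes with a mean of at least 10 CPM are named. Other genes named were chosen after their values were seen. Alternatives were other scaling factors, filters, tests and thresholds, the replicate number as a block, each library left out in turn, and other gene lengths. Gene lengths, and leaving out libraries for the other pathway genes, were added after the data were seen. Some genes that these rules select are not reported here.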

Additional observations from a re-analysis of the deposited data

How the results depend on the processing

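Ntrk2, Ntrk3, Ngfr, Ret, Gfra2 and Cntfr kept their direction and their call under all 13 alternatives run for each gene, among them DESeq2, limma voom, other size factors and filters and each library left out, with adjusted p-values of at most 0.0261. The number of the 9 genes lower in iRGCs ranged from 5 to 7, with 5 at an absolute log2 fold change above 1, which leaves out Cntfr. Of the genes not called, Bdnf ranged from -0.33 to 0.11 on the log2 scale with 1 library left out, and its sign turned without iRGC replicate 1 (0.0066, adjusted p = 0.990) and without cRGC replicate 2 (0.11, adjusted p = 0.825, edgeR). Lifr ranged from -0.53 to -0.22 with 1 library left out and was called with the replicate number as a block, at -0.37 (edgeR adjusted p = 0.0695). The log2 difference of the ratio of Cntfr to Lifr, -0.091, ranged from -0.246 to 0.0573 with 1 library left out. The causes were not tested.

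With an absolute log2 fold change above 1 as well, 17 of the other pathway genes were higher and 11 lower, and 1930 of all tested genes were higher and 1758 lower. The replicate numbers did not pair the samples, with correlations of same-numbered libraries of -0.0142, -0.0446 and -0.0669, and the block changed no other call of the 9 genes. It moved the calls over all genes from 3707 higher and 3688 lower to 3316 and 3435. The scaling factors moved the median log2 fold change of all genes to no more than 0.0236. Where leaving out 1 library left 2 in its population, the spread was estimated over both populations. With 3 libraries per population, the difference of Bdnf was not bounded closely (95% interval of -0.81 to 0.47).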
